A study of Homo sapiens with 16 samples.

Results

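LAN-1 cells that had received GSK126 for 2 days were compared with LAN-1 cells that had received the solvent DMSO for the same time, over every gene with enough counts. LAN-1 is an established human neuroblastoma line with amplified MYCN, the oncogene that encodes the transcription factor N-Myc. GSK126 is an inhibitor of EZH2 and was used at 2 uM. The libraries were chosen by their labels of line, treatment and time alone, which gave 4 of the 16 libraries of the series, 2 with GSK126 and 2 with DMSO. The other 12 hold LAN-1 at day 5 and Kelly, another neuroblastoma line with amplified MYCN, at days 2 and 5, with the same treatments and 2 libraries per group. Both groups compared here are the same line with no engineered change, so each carries the MYCN amplification. The labels call the libraries duplicates and do not say whether they came from separate cultures. P-values thus measure only the spread between duplicates, estimated over all 16 libraries, and that spread may be technical.

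EZH2 carries the enzyme activity of PRC2, a Polycomb complex that methylates lysine 27 of histone H3 and holds developmental genes silent. GSK126 blocks the methyl transfer and leaves the protein in place, and the mark is then thought to be lost gradually as chromatin is copied and histones are replaced. Cholesterol is made from acetyl-CoA through mevalonate, isoprenoids, squalene and lanosterol. The genes of that route are transcribed together by the sterol-sensing factors encoded by SREBF2 and SREBF1 when membrane sterol is low, and SREBF1 also drives fatty acid synthesis.

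At day 2 the genes that rose in LAN-1 were few, and the largest group among them was the machinery of cholesterol and lipid synthesis. Of 11863 genes tested, 18 passed an adjusted p of 0.05 (0.152%), all 18 higher with GSK126 and 0 lower. By fold they ran from 1.28 for FDFT1, which makes squalene, to 3.00 for LIPG, a secreted phospholipase of the lipase family. On the list of sterol synthesis and uptake or the list of fatty acid synthesis stood 8 of the 18, and with LIPG and PCYT2, an enzyme of phosphatidylethanolamine synthesis, lipid genes made up 10. The other 8 were COL6A1, COL2A1, PDGFRA, FOXC1, SFRP1, PRPH, PRUNE2 and WASF3. At an unadjusted p under 0.05 stood 739 genes (6.23%), 404 higher (3.41%) and 335 lower (2.82%). Adjusted p-values come from edgeR's quasi-likelihood test with Benjamini-Hochberg adjustment over all 11863 genes, and log2 fold changes are given with their standard error from that fit, with n = 2 per group.

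**Figure D1:**
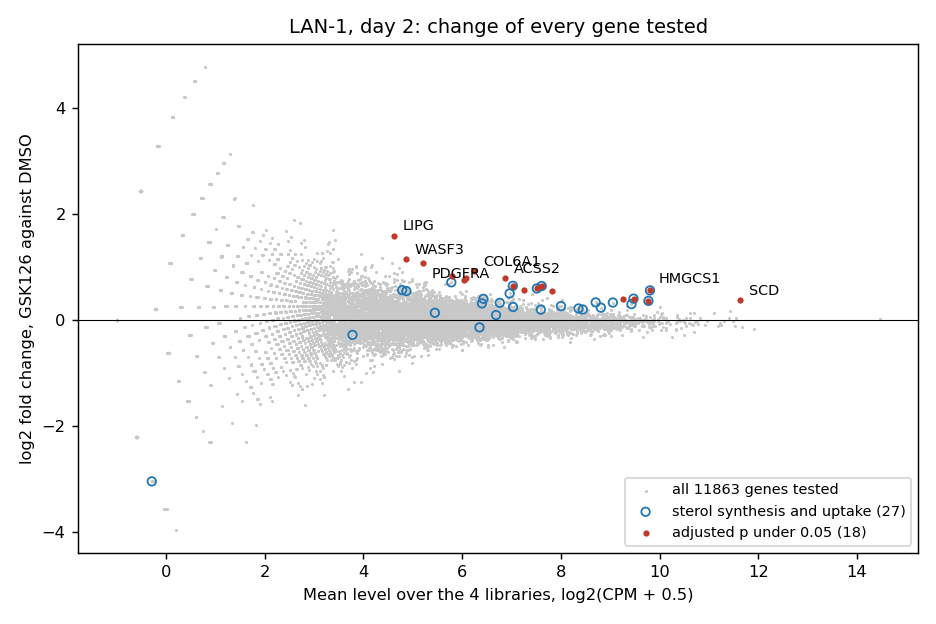
Each point is 1 of the 11863 genes tested, with its mean level over the 4 LAN-1 day 2 libraries on the x axis, as log2(CPM + 0.5), and its log2 fold change with GSK126 on the y axis. The 18 genes with an adjusted p under 0.05 (red) all lie above 0, and 24 of the 27 sterol genes (blue circles) do too; the circle near -3 is INSIG1, which had 2 reads or fewer in each of these libraries.

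The 4 libraries held 1597429 and 1514344 counts in DMSO and 1243178 and 1312848 with GSK126, within the series' range of 912095 to 1666190. Levels are given in CPM, counts per 1e6 of the scaled library total, and are not corrected for gene length, so they are compared between libraries and never between genes. Variance between duplicates was 1.30 times that of counting alone in DMSO and 1.19 times with GSK126. The adrenergic neuroblastoma markers summed to 3989 and 3858 CPM in DMSO and 3645 and 3776 CPM with GSK126, with reads for all 9. MYCN alone gave 1774 and 1688 CPM of these sums in DMSO and 1646 and 1778 CPM with GSK126. Of the catecholamine enzymes, TH, which makes the precursor L-DOPA, had at most 1 read per library, and DBH had 2 to 6. The summed markers of Schwann cells and glia, blood, epithelium and endothelium lay between 0 and 11.6 CPM in each library, and SPI1, CD3E, CDH1, PECAM1 and S100B had no read. In these bulk samples, fewer cells of a type and less RNA per cell cannot be told apart.

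The drug's target itself did not pass the test. EZH2 stood at 136 and 149 CPM in DMSO and at 114 and 111 CPM with GSK126. The groups did not overlap, and the log2 fold change was -0.33 ± 0.13 (adjusted p = 0.627). EZH1, which encodes the alternative catalytic subunit (-0.10 ± 0.29), EED (0.33 ± 0.30) and SUZ12 (0.13 ± 0.14), both core subunits, had adjusted p-values from 0.939 to 0.994. MYCN read 1774 and 1688 CPM in DMSO and 1646 and 1778 CPM with GSK126, so its groups overlapped (-0.02 ± 0.08, adjusted p = 1.000). GSK126 acts on enzyme activity, so the level of these transcripts does not check the labels.

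An early step of the mevalonate route gave the smallest p-value. HMGCS1, which condenses acetoacetyl-CoA and acetyl-CoA to HMG-CoA, read 708 and 742 CPM in DMSO and 1079 and 1053 CPM with GSK126. The pairs lay far apart compared with the spread within each, and HMGCS1 rose 1.47-fold (log2 0.56 ± 0.08, adjusted p = 1.14e-05). It lies at chromosome 5:43287572-43313614 on GRCh37 and kept its call when any 1 of the 4 libraries was left out (highest adjusted p = 0.0337, without DMSO replicate 1).

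Further along, IDI1 and FDFT1 rose at the isoprenoid and squalene steps. IDI1, which interconverts the isoprene units, read 145 CPM in both DMSO libraries and 236 and 203 CPM with GSK126 (1.51-fold, log2 0.59 ± 0.12, adjusted p = 0.00239). Both treated libraries exceeded both controls, but the call was lost in 3 of the 4 fits that left out 1 library, with an adjusted p of up to 0.452 without GSK126 replicate 1. FDFT1, squalene synthase, read 758 and 777 CPM in DMSO and 991 and 978 CPM with GSK126. The libraries of each group agreed closely, and the rise was 0.36 ± 0.08 on the log2 scale (adjusted p = 0.0272, and up to 0.486 without DMSO replicate 1). FDFT1, SFRP1 and PRUNE2 fall outside the naming rule and were added after their values were seen.

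Past lanosterol, the gene that rose was MSMO1, a methyl oxidase that removes the methyl groups at carbon 4 of the sterol nucleus. It read 139 and 166 CPM in DMSO and 273 and 203 CPM with GSK126. The treated pair differed more from each other than the control pair did, and the rise was 1.56-fold (0.64 ± 0.12, adjusted p = 0.0011). Without GSK126 replicate 1, its higher treated library, the adjusted p was 0.840. STARD4, a soluble carrier of cholesterol between membranes, read 104 and 98.5 CPM in DMSO and 167 and 150 CPM with GSK126. It rose 1.56-fold with no overlap (0.64 ± 0.13, adjusted p = 0.00445, and up to 0.385 without GSK126 replicate 1). On GRCh37, IDI1 lies at chromosome 10:1085092-1095059, MSMO1 at 4:166248819-166264316 and STARD4 at 5:110831731-110848288.

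**Figure D2:**
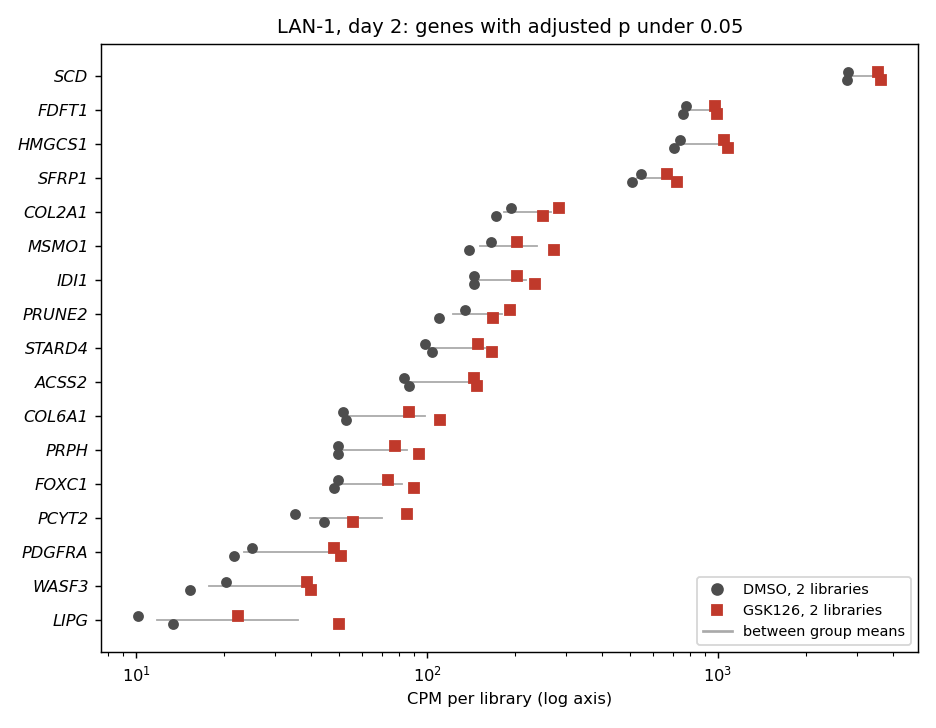
CPM in each of the 4 LAN-1 day 2 libraries (log x axis) for 17 of the 18 genes with an adjusted p under 0.05, ordered by their mean in DMSO; circles are the 2 DMSO libraries, squares the 2 GSK126 libraries and lines join the group means. Both squares lie to the right of both circles in every row, and LIPG (22.4 and 49.8 CPM with GSK126) shows the widest spread between treated libraries.

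The list of sterol synthesis and uptake genes held 6 of the 18 genes, and most of its other members had small positive values. Of the 29 genes of the list present in the table, 27 passed the count filter. Among the 27, 6 rose (among them HMGCS1, IDI1, FDFT1, MSMO1 and STARD4) and 0 fell, against 0.152% of all genes that rose. A further 14 were higher at an unadjusted p under 0.05 without passing the adjusted test, against 3.41% of all genes higher at that level, and 7 had a larger p. The median log2 fold change was 0.32, beside 0 over all genes tested, and 24 of 27 were positive, beside 49.6% of all genes. The list was chosen with earlier results of these libraries known, so its counts describe the libraries and are not independent evidence.

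The members that did not pass the adjusted test covered nearly the whole route. ACAT2, the thiolase that supplies acetoacetyl-CoA, stood at 0.20 ± 0.10 on the log2 scale. The mevalonate kinase MVK stood at 0.40 ± 0.15 and the decarboxylase MVD at 0.71 ± 0.20, with MVD at 48.7 and 34.0 CPM in DMSO and 62.8 and 72.7 CPM with GSK126. PMVK, the kinase between them, was at -0.28 ± 0.35, and FDPS, farnesyl diphosphate synthase, at 0.19 ± 0.11. SQLE, the squalene epoxidase, read 447 and 496 CPM in DMSO and 601 and 582 CPM with GSK126 (0.33 ± 0.09, adjusted p = 0.183). LSS, which closes the ring to lanosterol, read 382 and 357 CPM in DMSO and 480 and 451 CPM with GSK126 (0.33 ± 0.09, adjusted p = 0.202). For neither did the groups overlap.

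The other late steps from lanosterol to cholesterol had positive values as well. CYP51A1, the lanosterol demethylase, stood at 0.26 ± 0.10, TM7SF2, a sterol reductase, at 0.56 ± 0.26, and NSDHL, a sterol dehydrogenase, at 0.31 ± 0.15. HSD17B7 (0.54 ± 0.24), EBP, a sterol isomerase (0.32 ± 0.14), and SC5D, a desaturase (0.22 ± 0.10), had adjusted p-values from 0.749 to 0.761. DHCR7, the last reductase of the Kandutsch-Russell branch, read 110 and 95.8 CPM in DMSO and 143 and 149 CPM with GSK126 (0.50 ± 0.14, adjusted p = 0.159). Both treated libraries of DHCR7 lay above both controls.

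Among the transport and regulatory genes, STARD4 was the one that passed the test. NPC1, which exports cholesterol from lysosomes, stood at 0.14 ± 0.20. The regulators SREBF2 (0.23 ± 0.10) and SREBF1 (0.09 ± 0.15) and the escort protein gene SCAP (-0.14 ± 0.15) did not pass the test. INSIG1, whose product retains SCAP in the endoplasmic reticulum and which is itself a target of the route's regulators, had 1.28 and 0 CPM in DMSO and 0 in both GSK126 libraries. No fold is given for INSIG1, since both groups lie at or under 3 counts, whereas in Kelly at day 2 it read 70.1 and 74.2 CPM in DMSO and 92.4 and 83.0 CPM with GSK126. Of the sterol efflux list, which holds targets of the oxysterol receptors such as ABCA1 (-0.16 ± 0.16), 0 of the 6 tested genes passed the test.

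**Figure D3:**
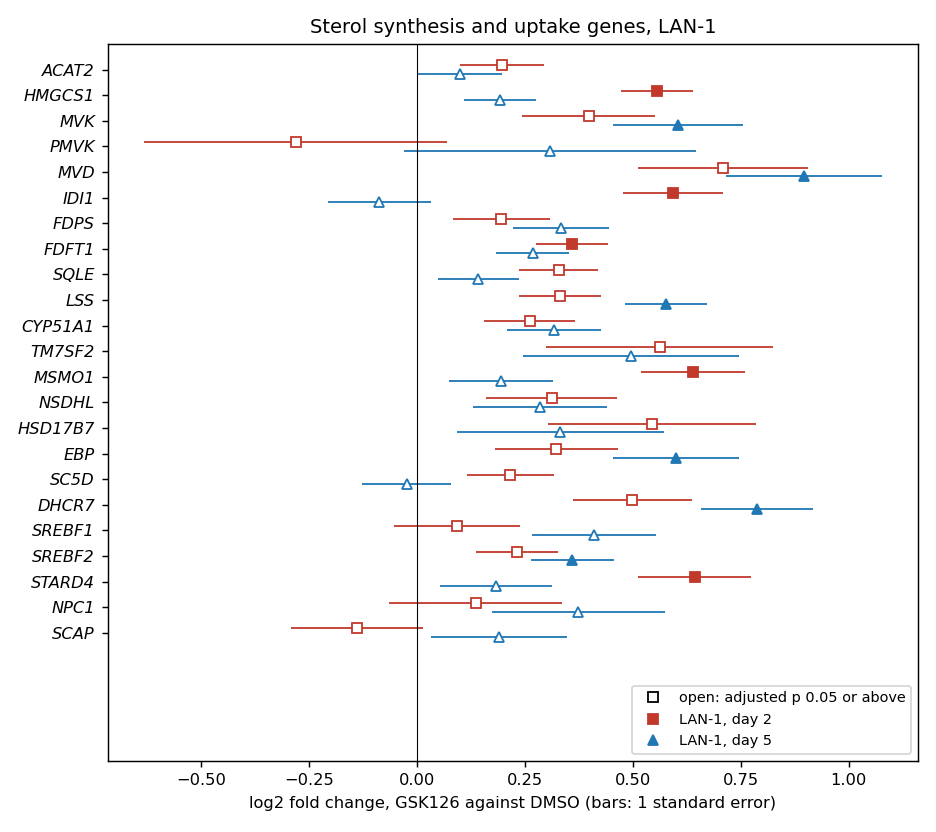
Log2 fold change with GSK126 (x axis, bars of 1 standard error) for 23 of the 27 tested sterol genes, in pathway order from ACAT2, at day 2 (red squares) and day 5 (blue triangles) in LAN-1; filled symbols have an adjusted p under 0.05. Of those drawn, 5 are filled at day 2 and 6 others at day 5, and IDI1 and SC5D lie just below 0 at day 5.

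Promoter sequence was read for the genes that rose, because 6 of the 18 belong to the sterol route, whose genes are transcribed together. The CCAAT box, which the factor NF-Y binds and which is common in promoters of sterol genes, was searched as CCAAT on both strands in the 250 bases before each start site, from RefSeq on GRCh38.p14. It was present in 10 of the 13 risen genes with an entry (76.9%) and in 15 of the 21 sterol genes with one (71.4%). It was present in 33.0% of all 27305 promoter windows and in 35.4% of those of the 9024 tested genes with an entry. At least 2 boxes stood in 46.2% of the risen genes and in 42.9% of the sterol genes, beside 13.1% of tested genes. The sterol regulatory element searched as TCACNCCAC on both strands was in 0 of the 13 and in 1 of the 21, SREBF2, beside 0.798% of tested genes. These matches describe letters in a window and were not tested against expression. The windows of 4 risen lipid genes with at least 2 boxes each are shown 5′ to 3′ on the gene's strand, with CCAAT or its complement ATTGG in capitals. They are HMGCS1 (chr5:43313413-43313662, minus strand, 2 boxes), MSMO1 (chr4:165327419-165327668, plus strand, 4 boxes), STARD4 (chr5:111512536-111512785, minus strand, 2 boxes) and SCD (chr10:100346983-100347232, plus strand, 2 boxes).
HMGCS1: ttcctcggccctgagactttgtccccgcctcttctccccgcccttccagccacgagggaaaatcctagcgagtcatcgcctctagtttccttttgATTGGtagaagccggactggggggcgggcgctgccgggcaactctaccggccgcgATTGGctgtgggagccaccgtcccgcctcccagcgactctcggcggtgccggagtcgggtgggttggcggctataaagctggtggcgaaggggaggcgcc
MSMO1: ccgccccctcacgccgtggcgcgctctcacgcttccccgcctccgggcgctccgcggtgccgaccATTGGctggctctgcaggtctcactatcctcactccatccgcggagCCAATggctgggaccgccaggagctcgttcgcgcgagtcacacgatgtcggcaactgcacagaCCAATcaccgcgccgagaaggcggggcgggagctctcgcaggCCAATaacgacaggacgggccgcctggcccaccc
STARD4: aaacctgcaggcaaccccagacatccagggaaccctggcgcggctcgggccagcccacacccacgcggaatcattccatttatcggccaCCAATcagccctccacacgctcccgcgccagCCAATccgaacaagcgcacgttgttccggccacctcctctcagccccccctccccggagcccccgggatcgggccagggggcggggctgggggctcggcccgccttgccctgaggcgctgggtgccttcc
SCD: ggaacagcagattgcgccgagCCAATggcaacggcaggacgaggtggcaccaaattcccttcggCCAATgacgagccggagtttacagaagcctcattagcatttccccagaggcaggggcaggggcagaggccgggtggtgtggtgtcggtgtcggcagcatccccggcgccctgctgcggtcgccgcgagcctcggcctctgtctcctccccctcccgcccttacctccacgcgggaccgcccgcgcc

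MSMO1 thus carried boxes on both strands, 3 as CCAAT and 1 as ATTGG, whereas the HMGCS1 window carried 2 as ATTGG and the STARD4 and SCD windows 2 each as CCAAT. Among the 13 risen genes with an entry, IDI1, PDGFRA and PRPH had none in this window.

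The genes of fatty acid synthesis held 2 that rose among 14 tested, ACSS2 and SCD. ACSS2, which makes acetyl-CoA from acetate and so feeds both routes, read 86.4 and 83.5 CPM in DMSO and 149 and 145 CPM with GSK126. Its pairs were tight and apart, it rose 1.72-fold (0.78 ± 0.14, adjusted p = 6.33e-04), and it kept its call without any 1 of the 4 libraries (highest adjusted p = 0.0473, without DMSO replicate 2). SCD, the desaturase that makes oleate from stearate, read 2768 and 2799 CPM in DMSO and 3642 and 3536 CPM with GSK126 (0.37 ± 0.08, adjusted p = 0.00501). The change of SCD was 1.29-fold and lost its call without any 1 library (up to 0.260 without GSK126 replicate 1). Over all genes tested, 0.152% rose. The list's median was 0.21, with 12 of 14 positive (49.6% of all genes) and 6 higher at an unadjusted p under 0.05 (3.41% of all genes). ME1, the malic enzyme that supplies NADPH (0.88 ± 0.27, adjusted p = 0.265), and ACSL3, an acyl-CoA ligase (0.38 ± 0.11, adjusted p = 0.159), came next. FASN, the fatty acid synthase, read 2185 and 2026 CPM in DMSO and 2226 and 2383 CPM with GSK126 (0.13 ± 0.09, adjusted p = 0.896). ACLY, which makes acetyl-CoA from citrate, stood at 0.03 ± 0.08.

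A pair of genes of phospholipid turnover rose as well. LIPG, endothelial lipase, read 13.4 and 10.2 CPM in DMSO and 49.8 and 22.4 CPM with GSK126. Both treated libraries exceeded both controls, but they differed from each other by more than the controls' level, and the rise was 3.00-fold (1.59 ± 0.29, adjusted p = 9.09e-04). Without GSK126 replicate 1 the adjusted p was 0.981. PCYT2, which makes CDP-ethanolamine, read 44.2 and 35.3 CPM in DMSO and 55.5 and 85.1 CPM with GSK126 (1.77-fold, 0.82 ± 0.19, adjusted p = 0.0214). Here GSK126 replicate 2 was the high library, and without it the adjusted p was 0.890. LIPG lies at chromosome 18:47087069-47125555 on GRCh37, PCYT2 at 17:79858834-79869308, ACSS2 at 20:33459949-33515765 and SCD at 10:102106990-102124583.

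Among the genes outside lipid metabolism, the collagen genes COL6A1 and COL2A1 and the receptor gene PDGFRA rose. COL6A1, a chain of the microfibrillar type VI collagen, read 52.5 and 51.6 CPM in DMSO and 111 and 86.6 CPM with GSK126. It rose 1.89-fold with no overlap (0.92 ± 0.17, adjusted p = 9.09e-04, and 0.385 without GSK126 replicate 1). COL2A1, the cartilage collagen chain, read 173 and 194 CPM in DMSO and 251 and 285 CPM with GSK126 (1.46-fold, 0.55 ± 0.11, adjusted p = 0.0028). The call of COL2A1 was lost without GSK126 replicate 2 (0.365). PDGFRA, a receptor tyrosine kinase for platelet-derived growth factors, read 21.8 and 25.1 CPM in DMSO and 50.6 and 48.0 CPM with GSK126. It rose 2.10-fold with tight pairs (1.07 ± 0.23, adjusted p = 0.0108), and its adjusted p was 0.400 without DMSO replicate 1.

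The lists that hold these genes had no other member past the test. Of 43 tested collagen and matrix genes 2 rose, and of 26 tested mesenchymal identity genes 2 rose, beside 0.152% of all genes, with medians of 0.04 and 0.10 beside 0. Fibroblast markers were summed, and the sum was higher with GSK126, though not every member was. Their sum, PDGFRA included, was 90.3 and 99.2 CPM in DMSO and 145 and 137 CPM with GSK126, and without PDGFRA it was 68.5 and 74.0 CPM against 94.7 and 89.0 CPM. FAP and POSTN had no read, DCN had 1 read in all, and COL1A1 had 2 to 5 reads per library. THY1 read 41.0 and 37.4 CPM in DMSO and 52.2 and 31.7 CPM with GSK126, with overlap. COL3A1 overlapped too (7.04 and 6.79 CPM against 5.71 and 13.9 CPM). LUM read 3.84 and 4.07 CPM in DMSO and 4.08 and 5.41 CPM with GSK126. PDGFRB, the sister receptor on the same list, read 15.4 and 20.4 CPM in DMSO and 27.7 and 33.3 CPM with GSK126 (0.78 ± 0.27, adjusted p = 0.432). The part of these markers in the result was not tested. On GRCh37, COL6A1 lies at chromosome 21:47401684-47424964, COL2A1 at 12:48366750-48398337 and PDGFRA at 4:55095447-55164412.

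FOXC1 was the risen member of the developmental factors that PRC2 classically binds, with 1 of 40 tested, beside 0.152% of all genes. FOXC1, a forkhead factor of mesoderm and neural crest, read 48.0 and 49.6 CPM in DMSO and 90.6 and 73.5 CPM with GSK126. It rose 1.68-fold (0.75 ± 0.18, adjusted p = 0.0294), and without GSK126 replicate 1 its adjusted p was 0.925. The median of the list was 0.18, with 27 of 40 positive beside 49.6% of all genes, and 47 of its 87 genes had too few counts to be tested. Named after their values were seen, SIX3 (0.71 ± 0.22), SOX9 (0.77 ± 0.24) and BARX1 (0.96 ± 0.34) were the other members with an unadjusted p under 0.05. BARX1 read 9.60 and 11.5 CPM in DMSO and 19.6 and 21.7 CPM with GSK126, without overlap, and its adjusted p was 0.501. Of the 4 neuroblastoma genes listed as EZH2-repressed, 0 passed the test. At an unadjusted p under 0.05, 2 of the 4 were higher, beside 3.41% of all genes, and the list's median was 0.30. CASZ1 stood at 0.49 ± 0.22, NGFR at 1.25 ± 0.56 on 3.20 to 8.16 CPM, CLU at 0.12 ± 0.12, and RUNX3 had no read in these 4 libraries. Of 11 tested HOX genes 0 passed.

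The remaining 4 risen genes are of neurons or of signalling. PRPH, the intermediate filament peripherin of peripheral neurons, read 49.3 and 49.6 CPM in DMSO and 93.8 and 77.4 CPM with GSK126. It rose 1.73-fold (0.79 ± 0.17, adjusted p = 0.0103, and 0.762 without GSK126 replicate 1). WASF3, an activator of actin branching, read 15.4 and 20.4 CPM in DMSO and 40.0 and 38.7 CPM with GSK126, and rose 2.20-fold (1.14 ± 0.25, adjusted p = 0.0132, and 0.531 without DMSO replicate 1). Neither gene's groups overlapped. SFRP1, a secreted inhibitor of Wnt ligands, read 508 and 543 CPM in DMSO and 721 and 667 CPM with GSK126 (0.40 ± 0.09, adjusted p = 0.0112). PRUNE2, a large gene expressed in neurons, read 110 and 135 CPM in DMSO and 168 and 193 CPM with GSK126 (0.56 ± 0.12, adjusted p = 0.0114). Their calls were lost at adjusted p = 0.613 without GSK126 replicate 1 for SFRP1 and 0.698 without DMSO replicate 1 for PRUNE2. On GRCh37, FOXC1 lies at chromosome 6:1610150-1614132, PRPH at 12:49688930-49692469, WASF3 at 13:27131820-27263085 and PRUNE2 at 9:79226292-79521030.

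Over the 18 genes, the libraries of both groups did not overlap in any, whereas 18.3% of all genes tested were higher without overlap and 17.7% lower without overlap. The 18 were chosen by their p-values in these libraries, which favours groups that do not overlap, so this is not independent evidence. HMGCS1 and ACSS2 were the genes called in all 4 fits that left out 1 library. When DMSO replicate 1 was left out, 3 genes were called, these and LIPG. The fit lacking DMSO replicate 2 called 5, these with MSMO1, COL2A1 and PRUNE2. The fit lacking GSK126 replicate 1 called 8, of which 5 were among the 18, these with PCYT2, COL2A1 and PRUNE2. The fit lacking GSK126 replicate 2 called 14, of which 10 were among the 18, these with LIPG, MSMO1, COL6A1, IDI1, PRPH, STARD4, FOXC1 and SFRP1. FDFT1, SCD, PDGFRA and WASF3 were among those called in none of the 4. DESeq2 called 2 genes, HMGCS1 and SCD. A fit on the 4 LAN-1 day 2 libraries alone called 39, 31 higher and 8 lower, and one with offsets for transcript length and GC content, chosen after seeing the data, called 40, 31 higher and 9 lower; all 18 were among both.

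No gene was called lower, and the genes with the smallest p-values in that direction did not pass the test. KMT2A, a histone H3 lysine 4 methyltransferase, read 313 and 354 CPM in DMSO and 242 and 258 CPM with GSK126 (-0.42 ± 0.10, adjusted p = 0.0600). HUWE1, a giant ubiquitin ligase, read 881 and 917 CPM in DMSO and 654 and 791 CPM with GSK126 (-0.32 ± 0.09, adjusted p = 0.159). The groups did not overlap for either. SRRM2, a splicing factor of nuclear speckles (-0.29 ± 0.08), POM121, a nuclear pore protein (-0.50 ± 0.14), and SSBP4 (-0.95 ± 0.26) each had an adjusted p of 0.159. KMT2A, HUWE1, SRRM2 and POM121 were called lower both by the fit on the 4 libraries alone and with offsets for length and GC content.

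Of the 44 gene lists other than cell markers, 5 held a gene that rose and 39 held none. Modifiers of histone H3 lysines 27 and 36 and related chromatin factors had 20 of 22 genes negative, a median of -0.16 and 4 lower at an unadjusted p under 0.05 (against 2.82% of all genes), KMT2A among them. The MYC target, nucleolar and ribosome biogenesis list had 11 of 47 genes positive (49.6% of all genes were), a median of -0.09 and 5 lower at that level. Actin and contractile genes had 6 of 27 lower at that level, and 7 were positive. The 20 adrenergic core factors had 4 lower at that level (2.82% of all genes), 1 higher and 0 called. They were evenly split, with 10 of 20 positive and a median of 0.03. GATA3 read 595 and 554 CPM in DMSO and 456 and 474 CPM with GSK126 (-0.30 ± 0.09, adjusted p = 0.232). It is a transcription factor of the sympathetic lineage, was named after its values were seen, and was called lower on the 4 LAN-1 day 2 libraries alone (adjusted p = 0.0367) and with the length and GC offsets. Cytosolic ribosomal protein genes (76 tested, median 0.03), G1/S and replication genes (46, median -0.07) and mitosis genes (42, median -0.03) had 0 called.

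In the amino acid stress and unfolded protein response list, 0 of 46 passed and 5 were higher at an unadjusted p under 0.05, beside 3.41% of all genes. TRIB3, a pseudokinase induced by amino acid and endoplasmic reticulum stress, read 11.5 and 13.6 CPM in DMSO and 32.6 and 24.0 CPM with GSK126. Its pairs did not overlap, and it stood closest to the threshold of that list (1.17 ± 0.30, adjusted p = 0.0934). Like the other genes of this list named here, it was picked after its values were seen. ASNS, asparagine synthetase (0.34 ± 0.16), and SLC7A11, the cystine transporter (0.40 ± 0.16), both had an adjusted p between 0.676 and 0.761. CDKN1A, which encodes the cell cycle inhibitor p21, had 0 reads in both DMSO libraries and 1.63 and 2.32 CPM with GSK126, too few for a fold.

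By day 5 the same comparison in LAN-1 called 434 genes (3.66%), 291 higher (2.45%) and 143 lower (1.21%). Each day has its own DMSO libraries. Of the 18 genes risen at day 2, 17 were positive at day 5 and 10 had risen there too, which is 55.6% of the 18 and 3.44% of the 291. The 10 were ACSS2, COL6A1, LIPG, COL2A1, SCD, PDGFRA, PCYT2, PRPH, SFRP1 and PRUNE2. COL6A1 read 68.2 and 56.3 CPM in DMSO and 139 and 158 CPM with GSK126 at day 5 (1.22 ± 0.16, adjusted p = 4.37e-09). ACSS2 read 100 and 125 CPM in DMSO and 215 and 218 CPM with GSK126 (0.95 ± 0.13, adjusted p = 2.74e-08). Both stayed apart at either day.

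The 6 sterol genes that rose at day 2 did not pass the test at day 5. They were chosen by their p-values at day 2, which favours smaller changes in other libraries. HMGCS1 read 810 and 949 CPM in DMSO and 1058 and 941 CPM with GSK126 at day 5, so its groups overlapped (0.19 ± 0.08, adjusted p = 0.211). MSMO1 (0.19 ± 0.12) and STARD4 (0.18 ± 0.13) had adjusted p-values of 0.432 and 0.513. IDI1 read 175 and 205 CPM in DMSO and 179 and 176 CPM with GSK126 (-0.09 ± 0.12), the negative value among the 18. FDFT1 stood at 0.27 ± 0.08 (adjusted p = 0.0535). On the same list 7 others, MVK, MVD, LSS, EBP, DHCR7 and SREBF2 among them, were called higher there. Those named were positive at day 2 as well. Of the list, 1 gene passed the test of the difference between days, IDI1, so none of the 7 did. The list's median was 0.31 at day 5, with 7 called, beside 0.32 at day 2, with 6 called. In DMSO alone, day 5 against day 2, the sterol median was 0.15 with 0 called (0.438% of all genes were called in that comparison), and HMGCS1 stood at 0.28 ± 0.08 (adjusted p = 0.174). That comparison shares its DMSO libraries with both days.

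**Figure D4:**
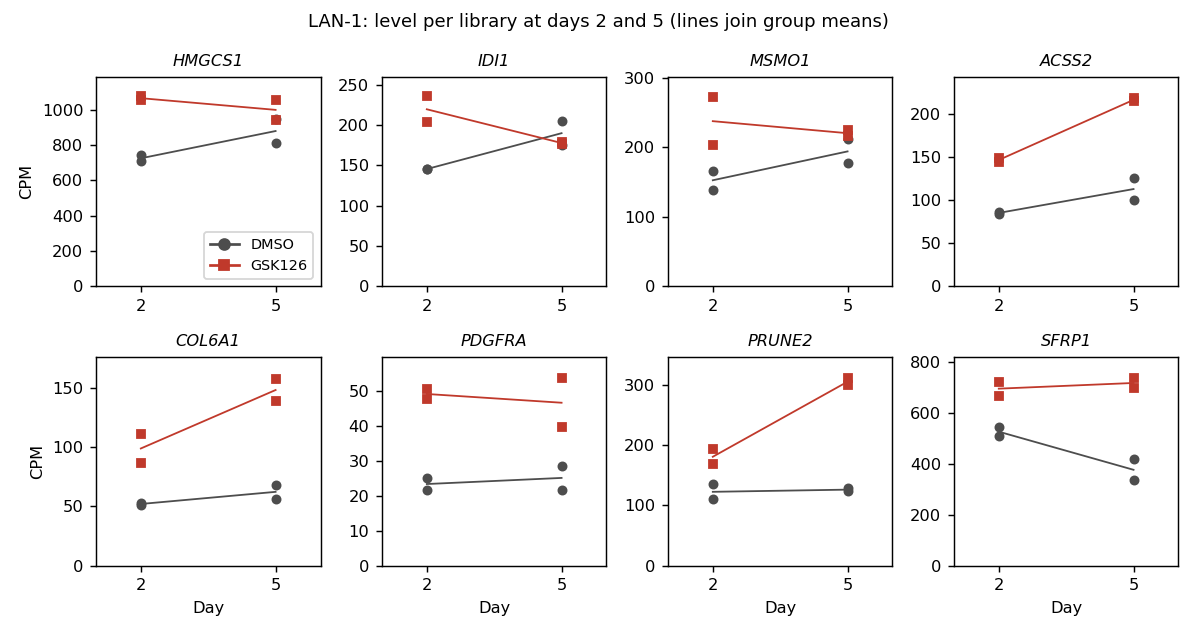
CPM per library (y axis, from 0) of 8 of the 18 genes in LAN-1 at days 2 and 5 (x axis), with DMSO as grey circles, GSK126 as red squares and lines between group means. IDI1, HMGCS1 and MSMO1 are apart at day 2 and close or overlapping at day 5, whereas ACSS2, COL6A1, PRUNE2 and SFRP1 stay apart at both days. All 8 were called at day 2, which favours wider gaps there.

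The test of the difference between days called 64 genes (0.539%), 51 with a more positive change at day 5 (0.43%) and 13 with a less positive one (0.11%). Only 3 of the 18 were among them. The change of IDI1 was lower at day 5 by 0.68 on the log2 scale (-0.68 ± 0.17, adjusted p = 0.0228), and those of PRUNE2 (0.71 ± 0.17, adjusted p = 0.0226) and SFRP1 (0.53 ± 0.13, adjusted p = 0.0202) were larger there. For the other 15, HMGCS1, MSMO1 and STARD4 included, the difference between days did not pass the test (HMGCS1 -0.36 ± 0.12, adjusted p = 0.174). SFRP1 in DMSO went from 508 and 543 CPM at day 2 to 335 and 417 CPM at day 5, while PRUNE2 in DMSO read 128 and 124 CPM at day 5 and 311 and 300 CPM with GSK126.

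The differences between days with the smallest p-values were in genes that did not pass the test at day 2. AHNAK, a giant scaffold protein, read 784 and 701 CPM in DMSO and 675 and 727 CPM with GSK126 at day 2. At day 5 it read 345 and 345 CPM in DMSO and 949 and 831 CPM with GSK126 (difference 1.46 ± 0.13, adjusted p = 4.99e-17). AHNAK thus fell with time in DMSO (-1.11 ± 0.09, adjusted p = 2.95e-18), one of 38 genes to do so (0.32%). Its treated mean at day 5, 890 CPM, lay above the day 2 means of 743 CPM in DMSO and 701 CPM with GSK126. HUWE1 (0.78 ± 0.12, adjusted p = 1.66e-05) followed. Next were IGFBP5, which binds insulin-like growth factors (1.36 ± 0.22), and KIF26B, an unconventional kinesin (1.35 ± 0.22). After them came KMT2D, an enhancer methyltransferase (0.97 ± 0.15, adjusted p = 3.36e-05). In the other direction stood SPCS3, a signal peptidase subunit (-0.60 ± 0.12), PTGES3, a co-chaperone (-0.60 ± 0.13), DCK, deoxycytidine kinase (-1.10 ± 0.26), CUL4A, a cullin (-0.63 ± 0.15), and ZNF300 (-1.15 ± 0.28). These 5 each lost the call in several of the 8 fits that left out 1 library. SPCS3 and PTGES3 kept it in 5 of the 8, DCK in 4, and CUL4A and ZNF300 in 3.

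Among the 64, 38 were negative at day 2 and positive at day 5. The 64 were chosen by the difference itself, which favours values of opposite sign. Of the 64, 55 were called at day 5 and 3 at day 2, all 3 higher. None of the 38 was called at day 2. The list of H3K27 and H3K36 modifiers and related chromatin factors held 5 of the 64, of 22 tested, beside 0.539% of all genes. They were KMT2A, KMT2D, CREBBP, EP300 and ARID1A. The list's median was -0.16 at day 2 and 0.24 at day 5. Transcript length and GC content were compared with this result. The 64 genes had a median transcript length of 8947 bases, beside 3562 over all tested genes with a length. Across 8665 genes, Spearman's rho of the log2 fold change with GC content was -0.080 at day 2 and 0.476 at day 5, while that with transcript length was -0.024 and 0.027. Also, the log ratio between duplicates had a rho with GC content of -0.470 for GSK126 and -0.075 for DMSO at day 5. At day 2 that rho was -0.203 for GSK126 and 0.327 for DMSO. Genes are not independent replicates. With the offsets for length and GC content 29 genes were called, 26 of them among the 64, and without GSK126 day 5 replicate 1 the count was 223. The lowest counts, 24 each, came without GSK126 day 2 replicate 1 and without DMSO day 5 replicate 2, and DESeq2 called 23.

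**Figure D5:**
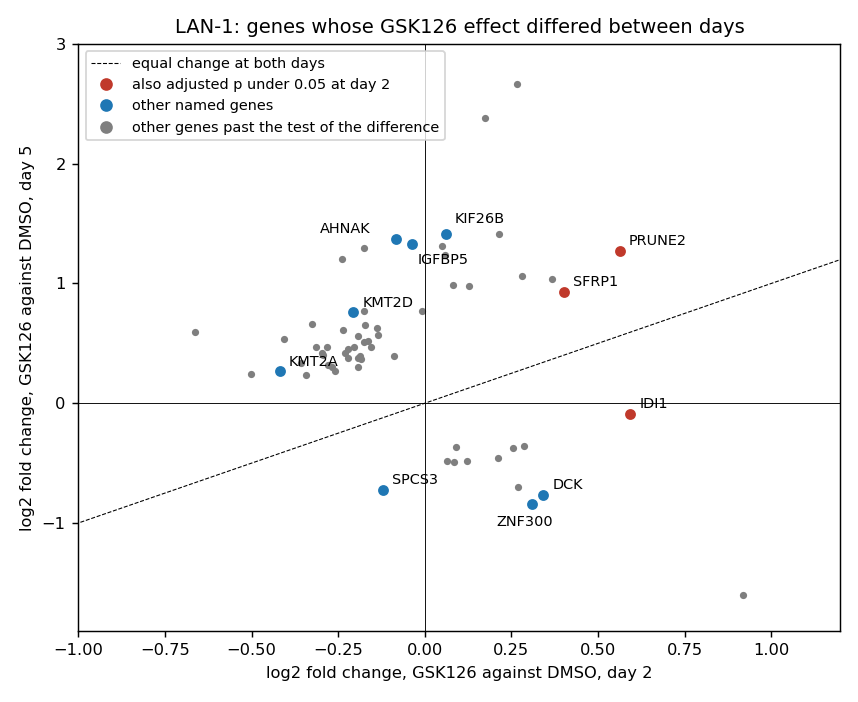
Log2 fold change with GSK126 at day 2 (x axis) and day 5 (y axis) in LAN-1 for 63 of the 64 genes whose change differed between days; the remaining one lies beyond the y axis. The dashed line marks equal change. IDI1 (red) lies below it at 0.59 and -0.09, and PRUNE2 and SFRP1 (red) lie above it. Most of the other points lie at negative x and positive y, which choosing genes by the difference favours. None of those points was called at day 2.

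In Kelly at day 2, GSK126 against its own DMSO libraries called 21 genes (0.177%), 20 higher (0.169%) and 1 lower (0.00843%). Of the 18 genes that rose in LAN-1, 17 were positive in Kelly, PCYT2 being at -0.01 ± 0.26, and 1 rose there, COL6A1. COL6A1 read 89.8 and 135 CPM in Kelly with DMSO and 153 and 181 CPM with GSK126 (0.53 ± 0.13, adjusted p = 0.0483). Several of the others were scarce in Kelly. ACSS2 read 4.49 and 8.66 CPM in DMSO and 9.18 and 12.8 CPM with GSK126 there (0.65 ± 0.41), and PDGFRA 0.898 and 2.47 CPM against 7.35 and 11.5 CPM (2.30 ± 0.60, adjusted p = 0.0777). HMGCS1 read 269 and 252 CPM in Kelly with DMSO and 266 and 306 CPM with GSK126, with overlap (0.14 ± 0.10, adjusted p = 0.805). The sterol list's median in Kelly was 0.095, with 0 called.

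The test of the difference between lines called 1 gene of 11863 (0.00843%), and 0 of the 18 were called. For HMGCS1 the LAN-1 change exceeded that of Kelly by 0.42 on the log2 scale (adjusted p = 0.681), and for IDI1 by 0.53 (adjusted p = 0.808), so a difference between the lines was not detected for these genes. The gene called was AGRN, the synapse-organising proteoglycan agrin, which read 154 and 120 CPM in DMSO and 140 and 150 CPM with GSK126 in LAN-1. In Kelly it read 8.09 and 14.8 CPM in DMSO and 41.0 and 35.1 CPM with GSK126, and the difference of the changes was -1.57 (adjusted p = 0.0118). AGRN was called in 4 of the 8 fits that left out 1 library and reached an adjusted p of 0.926 without Kelly DMSO replicate 1. The call was absent too without LAN-1 DMSO replicate 1, LAN-1 GSK126 replicate 1 or Kelly GSK126 replicate 1. At an unadjusted p under 0.05 stood 619 genes (5.22%), and DESeq2 called 0, with 178 at that level.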

How the data were processed

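The authors deposited a table of whole-number read counts per gene symbol, 1 column per library and not normalized (25728 symbols, 6598 with no read in any library). FastQC, TopHat2, featureCounts and the build GRCh37 (hg19) are named in the submitters' processing notes with no role or version; the annotation and strand setting are not given in the sources used here, so overlapping genes and near-identical copies are uncertain. The table held 28 symbols turned into dates, which were kept in the fit and never named. Several single genes have no result reported here.

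Counts were analysed with edgeR 4.0.16 (limma 3.58.1) in R 4.3.3: filterByExpr at a minimum count of 10, TMM scaling, and a robust quasi-likelihood fit of all 16 libraries with 1 mean per group (8 residual degrees of freedom, common biological coefficient of variation 5.31%). P-values were adjusted over 11863 genes, and "rose" or "called" means an adjusted p under 0.05. CPM uses the TMM-scaled total per 1e6 counts. Library totals of 912095 to 1666190 mean that 3 counts, the limit a count of 0 allows, are 1.82 to 3.31 CPM, which covers counting error only. The smallest changes that could be called are therefore larger for genes of low count. The filter kept genes by their counts in all 8 groups, so some tested genes had few reads in LAN-1.

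Libraries were grouped by title. The comparisons were GSK126 against DMSO in LAN-1 at day 2, its difference from day 5, and its difference from Kelly. The naming rule took EZH2, EZH1, EED, SUZ12 and MYCN, the 10 smallest adjusted p-values per direction, the 8 largest changes per direction with at least 5 CPM in a group and no overlap, up to 3 called members per list, the genes of smallest p up to 5 in a direction with fewer than 5 called, and 5 genes per direction for each difference. Members of the sterol, fatty acid and efflux lists are named as well. Of the 50 lists, 6 are cell markers, and 39 of the other 44 held no called gene; a result of some lists is given only in that count. The members and lists were chosen with earlier results of these data known. Gene positions and transcript lengths came from GENCODE lifted to GRCh37, matched by symbol (21873 directly, 1430 through a RefSeq synonym, 2423 unmatched). Alternatives were DESeq2 1.42.0, other scaling and filters, fewer libraries, the replicate block, and, added after seeing the data, offsets from a loess on transcript length and GC content. The code was tested on simulated counts.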

Additional observations from a re-analysis of the deposited data

Results flagged for a closer look

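The effect of GSK126 differed between day 5 and day 2 in LAN-1 for 64 genes by the test of the difference itself (edgeR adjusted p under 0.05). Among the named genes, the log2 fold change at day 5 minus that at day 2 was 1.46 for AHNAK, 1.36 for IGFBP5, 1.35 for KIF26B, 0.97 for KMT2D, 0.78 for HUWE1, 0.75 for POM121, 0.69 for SRRM2 and 0.68 for KMT2A. It was 0.71 for PRUNE2 and 0.53 for SFRP1, which had risen at day 2 already. It was -0.60 for SPCS3, -0.60 for PTGES3, -0.63 for CUL4A, -0.68 for IDI1, -1.10 for DCK and -1.15 for ZNF300. For AHNAK and HUWE1, which had the smallest p-values of this difference, it was 1.14 and 0.43 with the offsets for length and GC content. The sterol gene IDI1 is the one that had risen at day 2 and was below 0 at day 5. Between lines at day 2, the effect differed for 1 gene, AGRN, with a log2 fold change in LAN-1 minus that in Kelly of -1.57.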

How the results depend on the processing

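The 18 genes called in LAN-1 at day 2 were also called with RLE factors, without TMM, without the low-count filter and at a minimum count of 30, and 17 of them in a fit of the 8 LAN-1 libraries. DESeq2 called 2, with 1 sterol gene, and for the differences 23 between days and 0 between lines (178 at an unadjusted p under 0.05). A fit on the 4 LAN-1 day 2 libraries called 39, with 11 sterol genes. Offsets for length and GC content called 40 at day 2, with 11 sterol genes, 29 for the difference between days and 2 for that between lines, where omitting the low-count filter also gave 2. Leaving out 1 library gave 3 to 14 calls at day 2, 1 to 4 sterol genes, 24 to 223 for the difference between days and 0 to 2 for that between lines; the lone library of a group was then assumed to vary like the others. The cause of the gain on the 4 libraries was not tested. Deviations of same-numbered day 2 LAN-1 libraries correlated at -0.0438 over 8731 genes, so no shared effect of replicate number was seen. A value near 0 cannot tell whether the samples were handled in pairs, and the labels do not say. A replicate block gave 18 calls at day 2, 62 between days, 1 between lines and 6 sterol genes. The sterol median ran from 0.27 (without DMSO replicate 2) to 0.34. No called value changed sign in any alternative run; the day 2 values of EZH1, MYCN, IGFBP5, KIF26B and AGRN, which did not pass the test and lay near 0, did when 1 library was left out. Of the values of single named genes and the sterol median under alternatives, 573 kept their side of the threshold, 96 lost it, 10 gained it and 1 moved by more than the spread. The 18 genes kept their sign in 234 of 234 such values and their call in 168.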
